A study of Mus musculus with 23 samples.

Results

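The SLC25 family holds the carriers that move metabolites across the inner membrane of mitochondria. Its members were taken as every gene whose symbol is Slc25a followed by a number, which gave 41 of the 14651 genes measured in brown adipose tissue (BAT), or 0.28%. A further 7 annotated symbols of this form, Slc25a2, Slc25a13, Slc25a21, Slc25a41, Slc25a43, Slc25a54 and Slc25a5-ps, had no values among these genes and so were not analysed here. RNA was sequenced from male C57BL/6 mice 8 to 12 weeks old, 1 library per mouse. Control mice were Mcu fl/fl, and BAT-Mcu-KO (knockout) mice were Mcu fl/fl with Ucp1-Cre, so both carried the floxed gene of the mitochondrial calcium uniporter, and Cre was made only where the Ucp1 promoter is active. There were 6 control and 6 knockout mice at room temperature (RT), and 5 control and 6 knockout mice that spent 6 h at 4°C. The mice at 4°C were housed singly without bedding and, by the general protocol, without food. Whether the sequenced mice at RT had food is not stated, and in other 6 h experiments of the paper mice at RT were also without it. Cold, single housing and, if the mice at RT were fed, removal of food cannot be told apart.

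Most carriers of the family exchange 1 solute on the matrix side for another on the outer side, and a few import a solute together with a proton. They bring ADP and phosphate to ATP synthase, fatty acids as acylcarnitines to oxidation, and cofactors to matrix enzymes, and they send citrate out for fat synthesis. Thermogenic brown adipocytes burn fatty acids at a high rate, and the uncoupling protein that makes their heat, Ucp1, belongs to the same protein family under another name. A few carriers bind calcium on the outer side of the membrane, and so respond to cytosolic calcium without the uniporter.

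Libraries held 7129271 to 21006347 reads (median 13602248), of which 23.1% to 38.1% came from mitochondrial genes. Mcu had normalized counts of 81.4 to 136 (median 107) in control and 15.2 to 42.4 (median 38.1) in knockout mice at RT, and 24.0 to 39.9 (median 36.3) in knockout mice at 4°C, where the controls had 70.8 to 132. A normalized count is a read number divided by the size factor of its library. All 9 brown adipocyte markers looked up were present, and their summed normalized count, in which Ucp1 weighs most, was 128113 to 183950 at RT and 228897 to 280173 at 4°C. By cold, 3 of the 9 were called higher and 4 lower in control mice, with a median log2 change of -0.32, and 3 higher and 2 lower in knockout mice. Transcripts of skeletal muscle varied widely: the summed normalized count of 11 muscle markers ran from 16.2 to 61128 and was above 10000 in 8 mice. These were replicates 2, 4 and 5 of control at 4°C, replicates 3, 4 and 6 of knockout at RT, and replicates 1 and 2 of knockout at 4°C. For the members named, the adjusted p without these 8 mice is given where leaving them out ended or added a call. The sum of 5 endothelial markers was also higher in the cold, 2955 to 4226 at RT and 4744 to 7475 at 4°C in control mice, and 3017 to 4095 and 4359 to 6239 in knockout mice, though 2 of the 5 were called higher and 2 lower in control mice. Of 7 macrophage markers, 1 was called higher by cold in control mice and 4 in knockout mice. The part of these cells in the results was not tested. In whole tissue, fewer cells of a type and less RNA per cell cannot be told apart.

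The family as a whole took 0.733% to 0.966% of the reads of nuclear genes. Its summed normalized count had a median of 72416 in control mice and 76915 in knockouts at RT, and at 4°C of 78705 and 73891, and the ranges of the 4 groups overlapped. Levels of different genes were compared as normalized counts per kb of exon, with the exons of all transcripts of a gene merged. In control mice at RT these ran from 6089.8 ± 1628 (SD, n = 6) for Slc25a1, the citrate carrier, to 3.41 ± 2.58 (SD, n = 6) for Slc25a31, an ADP/ATP carrier best known from testis. After Slc25a1 came Slc25a4 at 3336 ± 456 and Slc25a5 at 2710.5 ± 339, the main ADP/ATP carriers, then the carnitine carrier Slc25a20 at 2182 ± 273 and the glutathione carrier Slc25a39 at 1598 ± 72.2, all per kb with SD. The same 5 led in all 4 groups, with Slc25a5 above Slc25a4 in both groups at 4°C. Per kb of the longest transcript they also led in control mice at RT, but with Slc25a20 (3843) above Slc25a5 (3598). The carriers for oxoglutarate (Slc25a11), phosphate (Slc25a3) and NAD (Slc25a51) were among those that followed. In this order the mice of a carrier and of the next lower one overlapped except at 3 places, below Slc25a20, below Slc25a51 and below Slc25a22. Rank itself moved with cold: Slc25a34 went from rank 23 of 41 to 14 in knockout mice, Slc25a25 from 38 to 21, and Slc25a10 from 20 to 30. Slc25a31 rested on 0 to 62 reads and was at or under 3 reads in 4 mice.

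**Figure D1:**
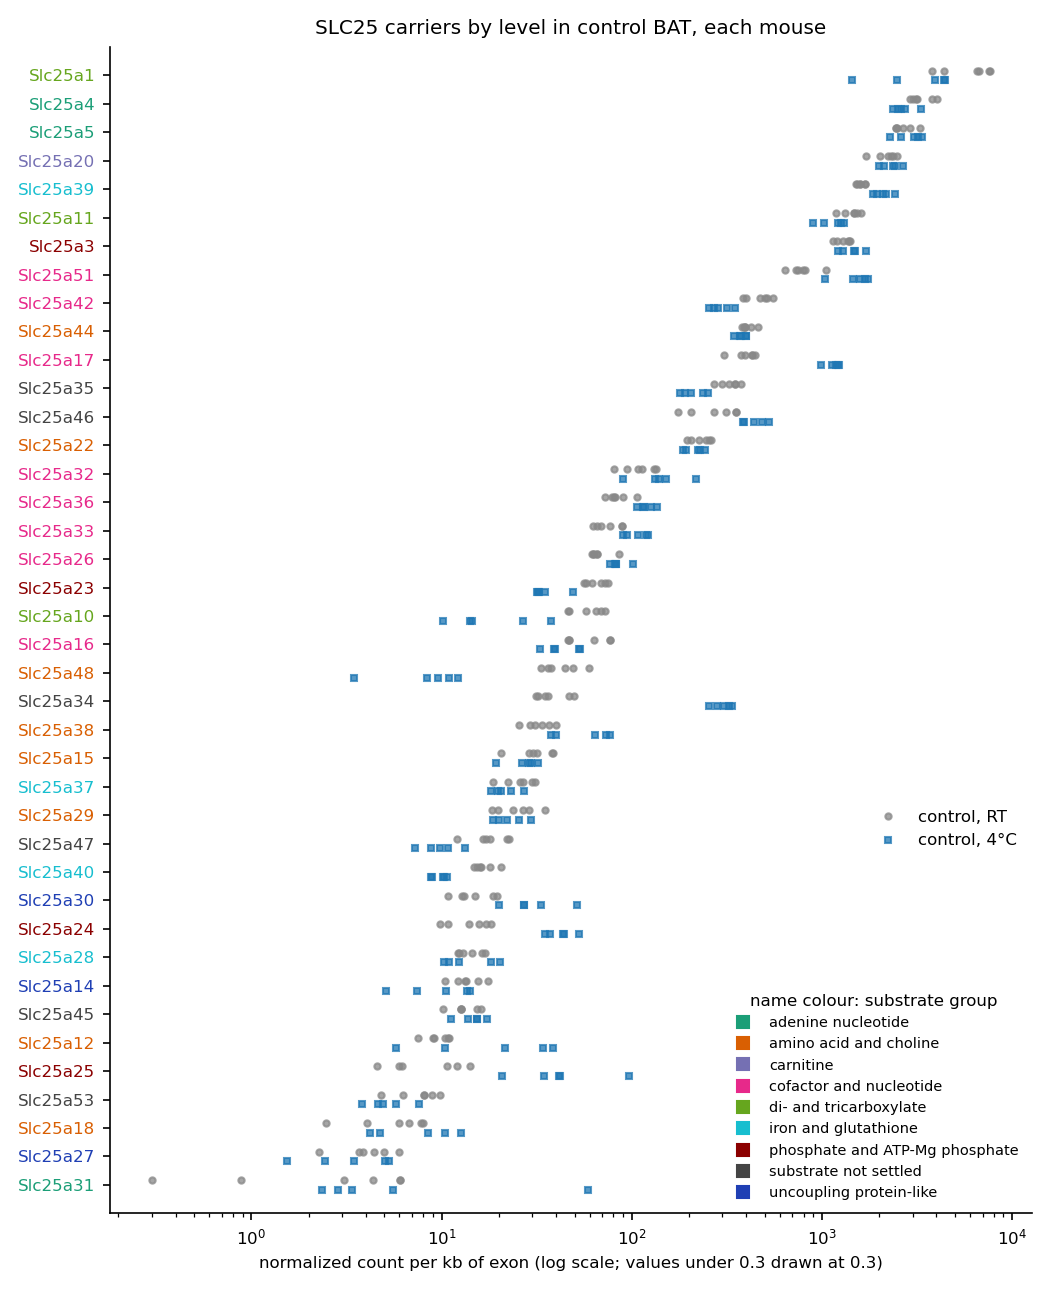
Normalized count per kb of exon (log axis) of the SLC25 members reported here in every control mouse, grey circles at RT and blue squares at 4°C, ordered by the mean at RT and with names coloured by substrate group. Slc25a1 is at the top with a mean of 6090 per kb at RT, Slc25a34 moves from a mean of 38.6 to the right of all its RT points at 4°C, and Slc25a48 and Slc25a10 move left.

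Cold changed more than 1 in 2 members of the family, in both directions and in both genotypes. In control mice limma called 24 of the 41 at an adjusted p under 0.05, 12 higher and 12 lower at 4°C, against 46.0% of all genes tested (22.3% higher and 23.7% lower). In knockout mice it called 23, 12 higher and 11 lower, against 43.3% of all genes (21.4% higher and 21.9% lower). The same direction was called in both genotypes for 21 members, 11 higher and 10 lower, where 34.8% of all genes were so called. With 58.5% and 56.1% of its members called, the family was somewhat above the share of all genes, a difference for which no test was made. The members were also more often of high level: 35 of the 41, and 9531 of the 14651 genes, had a mean normalized count of at least 50. Of these 35, 12 were called higher and 11 lower in each genotype. Of the 9531 genes, 2795 were called higher and 2487 lower in control mice, and 2629 and 2300 in knockout mice. The median log2 fold change of the members was -0.02 in control and 0.02 in knockout mice, beside -0.02 in both genotypes for all genes. Only 6 members changed at least 2-fold in both genotypes and were called: Slc25a34, Slc25a25, Slc25a24 and Slc25a17 rose, and Slc25a48 and Slc25a10 fell. The groups at RT and 4°C did not overlap for 14 members in control mice (8 above, 6 below; 25.2% of all genes) and for 9 in knockout mice (6 above, 3 below; 24.2% of all genes).

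Without the 8 mice of high muscle transcripts, which leaves 15, the calls for cold were 20 in control and 12 in knockout mice, and 11 in both genotypes. Over all genes, 4630 and 4261 of 14651 were then called. This setting was chosen after seeing the data. It kept 6 control mice at RT and 2 at 4°C, and 3 knockout mice at RT and 4 at 4°C. A call lost through muscle transcripts and one lost through fewer mice therefore cannot be told apart. Called in both genotypes with and without those mice were 9 members: Slc25a34, Slc25a25, Slc25a24, Slc25a17 and Slc25a51, all higher, and Slc25a48, Slc25a10, Slc25a23 and Slc25a16, all lower. With the muscle transcripts as a covariate and all mice kept, 25, 23 and 21 members were called. Under quantile normalization the 21 members called in both genotypes split into 8 higher and 13 lower, and the 23 in knockout mice into 9 higher and 14 lower.

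**Figure D2:**
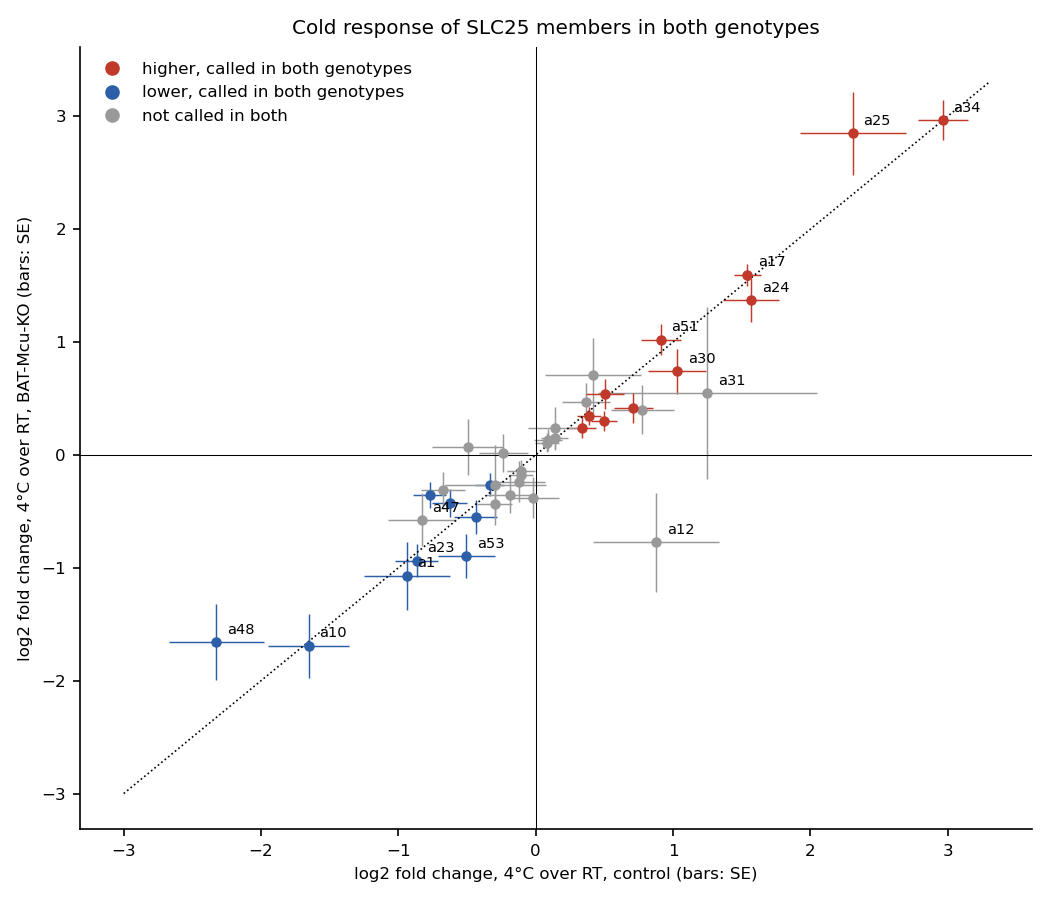
Log2 fold change of 4°C over RT for the members reported here, control mice on the horizontal and BAT-Mcu-KO mice on the vertical axis, with SE bars and a dotted line of equal change. Members called higher in both genotypes (red) and called lower in both (blue) lie near the line, and Slc25a12 is the one clearly off it, at 0.88 and -0.77.

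The carriers of ATP-Mg and phosphate held both strong rises and a fall. Slc25a23, Slc25a24 and Slc25a25 exchange ATP-Mg for phosphate, which changes the total adenine nucleotide of the matrix, and are switched on by cytosolic calcium. Slc25a25 had normalized counts of 35.9 to 111 (median 66.1) at RT in control mice and of 164, 271, 325, 329 and 759 at 4°C. In knockout mice it had 29.0 to 101 (median 63.6) at RT and 255 to 830.1 (median 361) at 4°C. No mouse at RT reached the lowest one at 4°C, and control replicate 1 at 4°C stood far above the other four. The log2 fold change was 2.31 ± 0.39 (SE) in control and 2.85 ± 0.37 in knockout mice (limma, adjusted p = 2.33e-05 and 6.81e-07), the first 2.92 without the mice of high muscle transcripts. Slc25a24 had 33.8 to 62.1 (median 51.1) at RT and 119, 127, 149, 150.2 and 181 at 4°C in controls. Its knockout values were 26.5 to 44.4 (median 36.0) at RT and 69.0 to 155 (median 94.2) at 4°C, again without overlap between temperatures. The changes were 1.57 ± 0.20 and 1.37 ± 0.19 on the log2 scale (limma, adjusted p = 7.29e-07 and 2.86e-06). Slc25a23 moved the other way, with 298 to 396 (median 346) at RT and 168, 169.9, 171, 184 and 259 at 4°C in controls. In knockout mice its counts were 202 to 397 (median 336) at RT and 139 to 209 (median 159.7) at 4°C, where the ranges overlapped. Its log2 fold change was -0.87 ± 0.16 in control and -0.94 ± 0.15 in knockout mice (limma, adjusted p = 5.98e-05 and 1.33e-05). Per kb of exon, Slc25a25 was 0.125 of Slc25a23 at RT and 1.09 of it at 4°C by the median of control mice, and 0.124 and 1.70 by that of knockout mice. The merged exons measured 7862 bases for Slc25a25 and 5294 for Slc25a23, and the longest transcripts 3821 and 3362. By the longest transcript these ratios would all be higher. Slc25a3, which imports the phosphate for ATP synthase, had log2 changes of 0.14 ± 0.10 and 0.15 ± 0.09 and was not called in either genotype.

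Slc25a25 lies at chr2:32414487-32451445 on the minus strand (GRCm38, GENCODE M21) and has 3 annotated starts among the RefSeq promoters, each a window from 250 bases before to 50 after a start. The letters TGACGTCA, the cAMP response element bound by CREB and related factors downstream of adrenergic signals, were looked for on both strands. They stand in 2 of the 41 promoters found for 32 members, 1 of Slc25a25 and that of Slc25a36, and in 1.79% of all 32851 RefSeq promoters and 2.96% of those of genes measured here. Both are shown because both genes were called higher at 4°C in both genotypes. In the window of Slc25a25 (chr2:32424017-32424316, minus strand, GRCm38.p6), whose start is the farthest downstream of the 3, the letters run from position -150 to -143, where -1 is the base before the start. In that of Slc25a36 (chr9:97110992-97111291, minus strand) they run from -161 to -154. Capitals mark every TGACG, on either strand, that the windows hold:
Slc25a25: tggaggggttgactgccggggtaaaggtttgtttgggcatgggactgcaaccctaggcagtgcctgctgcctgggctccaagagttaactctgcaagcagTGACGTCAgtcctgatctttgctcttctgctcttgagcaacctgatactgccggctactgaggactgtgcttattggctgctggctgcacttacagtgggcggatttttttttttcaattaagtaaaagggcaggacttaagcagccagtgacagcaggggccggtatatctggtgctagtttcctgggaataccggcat
Slc25a36: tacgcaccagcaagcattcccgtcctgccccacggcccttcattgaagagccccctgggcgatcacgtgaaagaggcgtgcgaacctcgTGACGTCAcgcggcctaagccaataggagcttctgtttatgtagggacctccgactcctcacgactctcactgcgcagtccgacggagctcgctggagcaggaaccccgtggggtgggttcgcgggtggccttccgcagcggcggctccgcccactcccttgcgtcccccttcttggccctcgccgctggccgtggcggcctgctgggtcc
The shorter letters TGACG, which the longer motif contains, stand in 12 of the 41 member promoters, or 29.3%, beside 30% of the promoters of measured genes. TGCGCA, the core of the NRF1 site, stands in 3 of the 41, or 7.32%, beside 13.1%. TGATGNAA, the ATF4 element, and TNAAGGTCA, the element of the estrogen-related receptors, were in 0 of the 41, where 2.27% and 0.751% of the promoters of measured genes hold them, so the letters are absent from these windows only.

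The carrier with the largest rise was Slc25a34, whose substrate is not settled. Its normalized count was 84.0 to 133 (median 94.8) at RT in control mice and 683, 751, 815, 869.6 and 897 at 4°C. Knockout mice had 69.1 to 217 (median 98.3) at RT and 763 to 889 (median 843) at 4°C. The lowest mouse at 4°C was above 3 times the highest at RT, and the log2 fold change was 2.97 ± 0.18 in control and 2.97 ± 0.17 in knockout mice (limma, adjusted p = 3.29e-12 and 1.53e-12), a rise of 7.82-fold in both. Its gene is at chr4:141618824-141623821 on the minus strand, and its promoter window (chr4:141623785-141624084, GRCm38.p6) holds none of the 5 motifs and is shown as the window of the most changed member:
Slc25a34: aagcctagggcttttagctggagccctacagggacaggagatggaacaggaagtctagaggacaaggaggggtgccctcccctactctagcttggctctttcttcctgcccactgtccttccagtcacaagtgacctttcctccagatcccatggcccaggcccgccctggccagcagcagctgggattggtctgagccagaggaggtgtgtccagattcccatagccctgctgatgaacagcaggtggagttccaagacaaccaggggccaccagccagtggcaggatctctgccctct
Of the other carriers without a settled substrate, Slc25a46, an outer membrane protein of mitochondrial fusion and fission, had 952 to 1921 (median 1589.7) at RT and 2082, 2105, 2387, 2638 and 2862 at 4°C in controls. Knockouts had 1688 to 1881 (median 1797) at RT and 2086 to 2697 (median 2352) at 4°C, with no overlap in either genotype. The log2 changes were 0.71 ± 0.14 and 0.42 ± 0.13 (adjusted p by limma, 0.000164 and 0.0127), and the knockout call was lost without the mice of high muscle transcripts (0.141) and under quantile normalization (0.158). Slc25a53 was lower at 4°C in both genotypes, with 38.3 to 78.3 (median 64.1) at RT and 30.4, 36.7, 39.3, 46.0 and 60.7 at 4°C in controls. Knockouts had 53.1 to 83.9 (median 68.8) at RT and 29.4 to 53.1 (median 33.2) at 4°C, and the temperatures overlapped in controls and were just apart in knockouts. Its log2 changes were -0.50 ± 0.21 and -0.89 ± 0.20 (adjusted p by limma, 0.0483 and 0.000635), and the control call was lost without any 1 of 8 mice (replicates 1, 2, 3 and 4 at RT and 2, 3, 4 and 5 at 4°C), with adjusted p up to 0.141. It was also lost under quantile normalization (0.124), with the 2 compared groups alone (0.0883), with the muscle covariate (0.0511) and without the mice of high muscle transcripts (0.718), which ended the knockout call as well (0.0578). Slc25a35 fell too, by log2 changes of -0.63 and -0.43, though 31.3% of its exon bases are shared with Rangrf on the other strand and reads were counted without strand. Its knockout call was lost without the mice of high muscle transcripts (adjusted p = 0.0700). Slc25a47 was called lower in control mice only (-0.83, and -0.58 in knockout mice at an adjusted p of 0.0502, called there under 8 alternatives, among them without replicate 6 at RT or without 3, 5 or 6 at 4°C), and its control call was lost without the mice of high muscle transcripts (0.0714). Slc25a45 was not called.

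**Figure D3:**
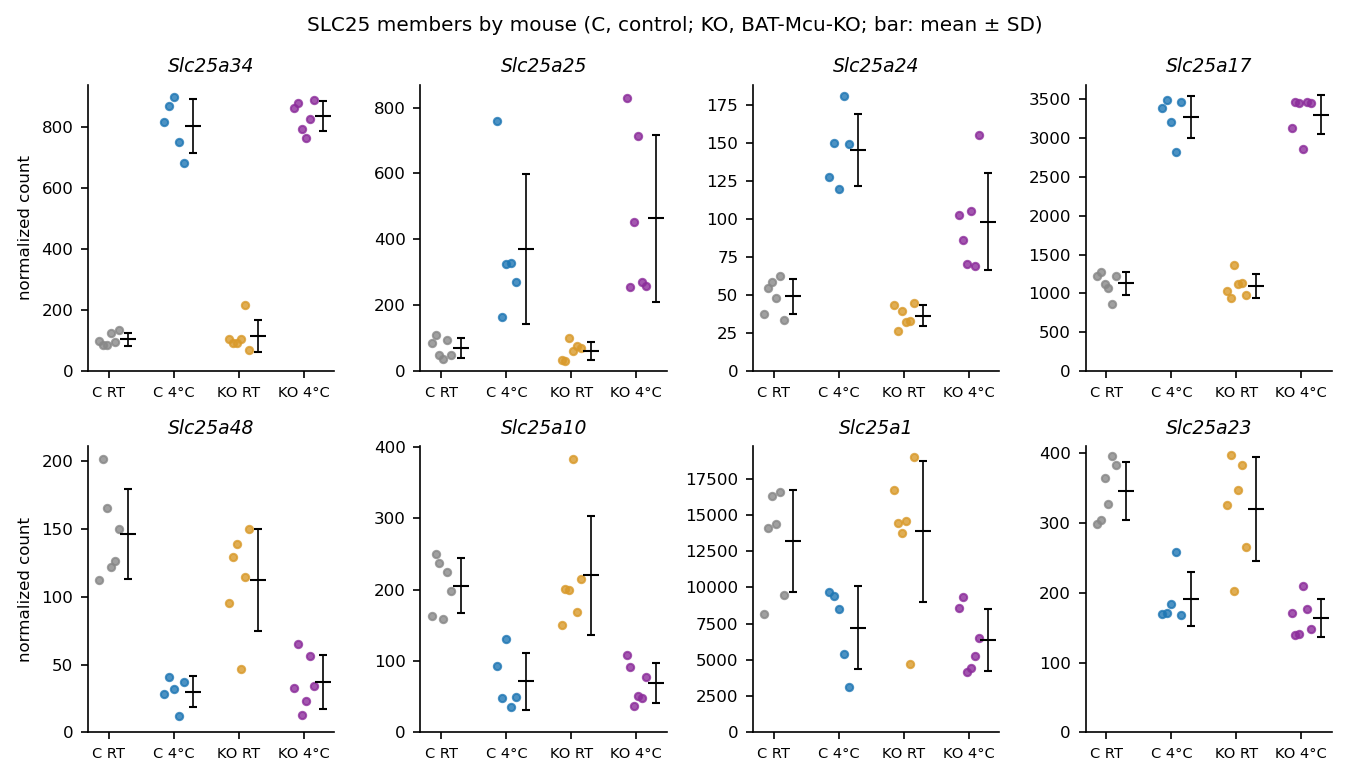
Normalized count of 8 members in each mouse, with the mean and SD of each group as a black bar and each vertical axis starting at 0. In the upper row the mice at 4°C sit above those at RT in both genotypes, and in the lower row they sit lower, with some overlap in BAT-Mcu-KO mice for Slc25a48 and Slc25a23 and in both genotypes for Slc25a1.

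The 3 carriers of di- and tricarboxylates measured, of 4 listed, all fell in the cold. Slc25a1 exports citrate, which ATP citrate lyase cleaves to acetyl-CoA for fat synthesis in the cytosol. Its normalized count was 8176 to 16572 (median 14261) at RT in control mice and 3103, 5385, 8518, 9430.2 and 9657 at 4°C. Knockout mice had 4747 to 18962 (median 14536) at RT and 4151 to 9309.8 (median 5877) at 4°C, and replicate 5 at RT, at 4747, lay far below the other five. The groups overlapped, and the log2 fold change was -0.94 ± 0.31 in control and -1.07 ± 0.30 in knockout mice (limma, adjusted p = 0.0164 and 0.00522). In control mice the call was lost without replicate 5 at 4°C (adjusted p = 0.0779) and without the mice of high muscle transcripts (0.301). Slc25a10, which exchanges malate or succinate for phosphate, fell furthest of the 3. It had 159 to 249 (median 212) at RT and 35.3, 48.6, 49.7, 93.0 and 131 at 4°C in controls. Knockouts had 150.2 to 383 (median 200.3) at RT and 36.7 to 108 (median 64.4) at 4°C, and no mouse at 4°C reached the lowest at RT in either genotype. The log2 changes were -1.65 ± 0.30 and -1.69 ± 0.28 (adjusted p by limma, 5.55e-05 and 2.5e-05), the first -0.87 (0.0124) without the mice of high muscle transcripts. Slc25a11, the oxoglutarate carrier of the malate-aspartate shuttle, fell by log2 changes of -0.33 ± 0.11 and -0.26 ± 0.10. Its control call was lost without replicate 5 at 4°C (adjusted p = 0.0574) and without the mice of high muscle transcripts (0.278), and that in knockout mice without any 1 of 5 mice (replicates 3, 4 and 6 at RT and 3 and 4 at 4°C, up to 0.121), without a trend in limma (0.0586) and without the mice of high muscle transcripts (0.169).

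Of the 9 carriers of cofactors and nucleotides, 5 rose and 3 fell in control mice, and 6 rose and 2 fell in knockout mice. Slc25a17, a peroxisomal carrier of coenzyme A, FAD and NAD and so one that works mainly outside mitochondria, had 866 to 1272 (median 1171) normalized counts in control mice at RT and 2821, 3212, 3388, 3465 and 3486 at 4°C. It had 946 to 1372 (median 1072) in knockout mice at RT and 2865 to 3467 (median 3450.4) at 4°C. The groups were far apart, with log2 changes of 1.54 ± 0.10 and 1.60 ± 0.10 (limma, adjusted p = 8.32e-12 and 2.03e-12) and replicate SDs at 4°C of 275 and 253 around means of 3274 and 3304. Slc25a51, which brings NAD into the matrix, had 3521 to 5761 (median 4235) at RT and 5730.1, 8044, 8759, 9232 and 9622 at 4°C in controls. Knockouts had 3938 to 6989 (median 4313) at RT and 7327 to 10425 (median 9661) at 4°C. The temperatures overlapped in control mice by a single value on each side and not in knockout mice, with log2 changes of 0.91 ± 0.14 and 1.02 ± 0.14 (limma, adjusted p = 1.24e-05 and 1.39e-06). Smaller rises in both genotypes were called for the pyrimidine nucleotide carriers Slc25a33 (0.50 and 0.54) and Slc25a36 (0.50 and 0.30) and for the S-adenosylmethionine carrier Slc25a26 (0.34 and 0.24), the last lost in knockout mice without any 1 of 9 mice (replicates 1, 3, 4, 5 and 6 at RT and 2, 3, 5 and 6 at 4°C, adjusted p up to 0.113). Of the exon bases of Slc25a33, 14.9% are shared with the antisense gene Gm13068, and reads were counted without strand. Without the mice of high muscle transcripts Slc25a33 was lost in control (adjusted p = 0.0771) and knockout mice (0.163), and Slc25a36 (0.0527) and Slc25a26 (0.292) in knockout mice. Quantile normalization ended the knockout call of Slc25a36 (0.0959) and both calls of Slc25a26 (0.0599 in control and 0.131 in knockout mice), as did scaling to the 75th percentile for Slc25a26 (0.0661 and 0.116), and the muscle covariate its knockout call (0.0574). The mitochondrial folate and FAD carrier Slc25a32 had 490.0 to 812 (median 671) at RT in control mice and 544, 803, 842, 921 and 1319 at 4°C. Its knockout values were 655 to 985 (median 868) at RT and 915 to 1493 (median 1219) at 4°C, and the temperatures overlapped in both genotypes. It was called for cold in knockout mice (0.47 ± 0.16, adjusted p = 0.023), a call lost without any 1 of 3 mice (replicate 5 at RT and 3 and 4 at 4°C, up to 0.0634) and under quantile normalization (0.0773), and not in control mice (0.37 ± 0.17, 0.0848), where it was called without replicate 5 at 4°C (0.0107) and without the mice of high muscle transcripts (0.0104).

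Among the falls in this group were those of Slc25a16, linked to coenzyme A (-0.44 ± 0.16 in control and -0.55 ± 0.15 in knockout mice), and of the coenzyme A carrier Slc25a42 in control mice. The Slc25a16 call in control mice was lost without any 1 of 5 (replicates 4 and 6 at RT and 1, 3 and 5 at 4°C, adjusted p by limma up to 0.0864) and with the 2 compared groups alone. Slc25a42 had 2305 to 3317 (median 2918) at RT in control mice and 1519, 1619, 1698, 1903 and 2088 at 4°C, without overlap. Knockout mice had 1492 to 3646 (median 2739.6) at RT and 1699 to 2576 (median 2063) at 4°C, with overlap. The log2 change was -0.68 ± 0.16 in control mice (limma, adjusted p = 0.00135) and -0.31 ± 0.16 in knockout mice (0.114, or 0.00503 without replicate 4 at RT, and called also under quantile normalization and, at 0.0378, without the mice of high muscle transcripts), and the difference between the genotypes was itself not called (0.37 ± 0.22, adjusted p = 0.857).

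Of the carriers of amino acids and choline, 1 fell in both genotypes. Slc25a48, a carrier linked to choline import, had 112 to 202 (median 138) normalized counts in control mice at RT and 11.8, 28.3, 32.4, 36.9 and 40.97 at 4°C, without overlap. Knockout mice had 46.6 to 150.0 (median 122) at RT and 12.8 to 64.9 (median 33.5) at 4°C, where 1 RT mouse at 46.6 lay among the 4°C mice. The log2 changes were -2.32 ± 0.35 and -1.66 ± 0.33 (adjusted p by limma, 5.8e-06 and 0.000238), the largest fall of any member in control mice. Of the 7 amino acid carriers measured, 1 was called in control mice and 0 in knockout mice by limma. That was Slc25a38, which supplies glycine for heme synthesis, with 0.78 in control mice (adjusted p = 0.00702, or 0.0652 without the mice of high muscle transcripts) and 0.40 in knockout mice (0.145, called without replicate 1 at RT or 6 at 4°C). The branched-chain amino acid carrier Slc25a44, which brown fat uses in thermogenesis, had log2 changes of -0.11 ± 0.09 and -0.17 ± 0.09 and was not called in either genotype. Its normalized counts were 1356 to 1649.8 (median 1409) and 1232, 1327, 1347, 1423 and 1426 in control mice, and 1128 to 1621 (median 1402) and 1077 to 1441 (median 1186) in knockout mice. It was called lower in knockout mice without replicate 5 at RT or 2 at 4°C (adjusted p up to 0.0418), and lower in both genotypes under quantile normalization (0.00790 in control and 0.00222 in knockout mice) and 75th percentile scaling (0.0461 and 0.0310). The glutamate carriers Slc25a22 and Slc25a18, the ornithine carrier Slc25a15 and the basic amino acid carrier Slc25a29 were not called, though quantile normalization called Slc25a22 in both genotypes (0.0272 and 0.0190) and Slc25a18 in knockout mice (0.0382).

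Slc25a12 was high in the mice with high muscle transcripts. It is the calcium-binding aspartate/glutamate carrier of excitable tissues and a part of the malate-aspartate shuttle. Its normalized count was 54.9 to 80.5 (median 71.5) at RT in control mice and 42.3, 76.9, 159, 250.4 and 282 at 4°C. Knockout mice had 68.8 to 395 (median 177) at RT and 64.3 to 131 (median 90.5) at 4°C. The 3 knockout mice at RT with high muscle transcripts had 395, 274 and 368, and the other 3 had 68.8 to 79.6. In control mice at 4°C, replicates 2, 4 and 5 had 250, 159 and 282, and the others 76.9 and 42.3. The log2 changes with cold were 0.88 ± 0.46 in control and -0.77 ± 0.44 in knockout mice (limma, adjusted p = 0.121 and 0.16), and -0.29 and 0.08 without the 8 mice. In control mice it was called without replicate 3 at 4°C (adjusted p = 0.0212). DESeq2 and edgeR called both of its cold changes with all mice. With the muscle transcripts as a covariate the changes were 0.86 (adjusted p = 0.0158) and -0.57 (0.0956), so the exclusion and the covariate gave different values. The summed muscle markers ran from 62.6 to 8135 in control mice at RT, 16.2 to 42994 in those at 4°C, 35.3 to 61128 in knockouts at RT and 74.3 to 10732 in those at 4°C, beside these levels of Slc25a12.

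**Figure D4:**
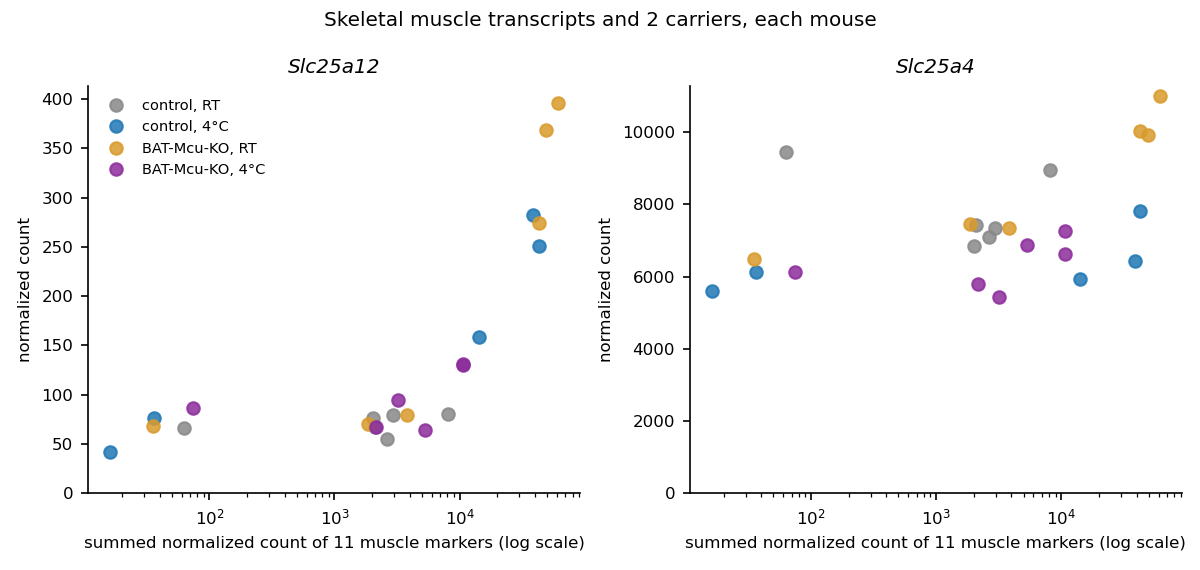
Normalized count of Slc25a12 (left) and Slc25a4 (right) in each of the 23 mice against the summed normalized count of 11 skeletal muscle markers (log axis), coloured by group. Slc25a12 lies between 42.3 and 94.2 in all mice with a sum below 10000 and between 131 and 395 in the 8 mice above it, and for Slc25a4 the 3 BAT-Mcu-KO mice at RT with the highest sums have the highest counts, 9926 to 10994.

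Of the 3 adenine nucleotide carriers, 0 were called for cold in control mice by limma and 1 in knockout mice. Slc25a4, the isoform of heart and muscle, had 6852 to 9452 (median 7385) at RT in control mice and 5591, 5931, 6135, 6441 and 7803 at 4°C. Knockout mice had 6477 to 10994 (median 8694) at RT and 5425 to 7248 (median 6377) at 4°C, again with overlap. It was lower in knockout mice (-0.43 ± 0.12, limma adjusted p = 0.00467) and just missed the threshold in control mice (-0.30 ± 0.13, 0.0549, called under 9 alternatives, among them without replicate 4 or 5 at RT or 2 at 4°C). Without the 8 mice of high muscle transcripts these turned to -0.23 (adjusted p = 0.189) and -0.41 (0.0264). Slc25a5, the isoform of most other tissues, had 4024 to 5426 (median 4245) and 3737, 4283, 5001, 5277 and 5536 in control mice at RT and 4°C. In knockout mice it had 3854 to 4607 (median 4447) and 4067 to 5261 (median 4838). Its log2 changes were 0.09 ± 0.10 and 0.13 ± 0.09 and neither was called, nor were those of Slc25a31 (1.25 ± 0.80 and 0.55 ± 0.76), which DESeq2 called in control mice (0.0498). Per kb, Slc25a5 was 0.767 to 0.886 of Slc25a4 in control mice at RT and 0.830 to 1.29 at 4°C, and in knockout mice 0.580 to 0.875 and 1.01 to 1.21. Slc25a5-ps is a pseudogene copy of Slc25a5, and reads common to both could not be placed uniquely, so the level of Slc25a5 is uncertain.

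The carnitine carrier Slc25a20, which brings acylcarnitines to beta-oxidation, was not called for cold. It had 8300.4 to 11969.5 (median 10977) at RT in control mice and 9664, 10223, 11500.2, 11698 and 12848 at 4°C. Knockout mice had 9259 to 11292 (median 10470.5) at RT and 10822 to 11462 (median 11268) at 4°C, and all ranges overlapped. The log2 change was 0.08 ± 0.09 in control and 0.11 ± 0.08 in knockout mice (limma, adjusted p = 0.452 and 0.315). Its partners in the carnitine shuttle, Cpt1a, Cpt1b, Cpt2 and Crat, gave 1 call of 8, Cpt2 lower in control mice (-0.30, adjusted p = 0.0274).

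Iron and glutathione carriers split. Slc25a39, which imports glutathione, had 4152 to 4640.1 (median 4394) at RT in control mice and 5136, 5383, 5793, 6004 and 6647 at 4°C, without overlap. Knockout mice had 4317 to 5967 (median 4486) and 5334 to 6591 (median 5849), where replicate 1 at RT, at 5967, lay among the 4°C mice. It rose by log2 changes of 0.39 ± 0.09 and 0.34 ± 0.08 (limma, adjusted p = 0.00055 and 0.00132), though in knockout mice the change was 0.19 (0.231) without the mice of high muscle transcripts. Its paralog Slc25a40 fell, with 124 to 173 (median 134) at RT and 74.2, 74.6, 85.0, 85.9 and 89.5 at 4°C in controls. Knockouts had 109 to 142 (median 119.9) at RT and 76.8 to 110.2 (median 97.4) at 4°C, a slight overlap that controls did not have. The log2 changes were -0.77 ± 0.12 and -0.35 ± 0.12 (adjusted p by limma, 1.22e-05 and 0.016, the last 0.197 without those mice). The iron carriers Slc25a37 and Slc25a28 were not called in either genotype, with Slc25a28 called lower in knockout mice when replicate 1 at RT was left out (adjusted p = 0.0306). Of 5 genes of iron and heme, 1 was called higher by cold in each genotype, and Alas1, Fech and Abcb10 were called lower in both. Alas1, the first enzyme of heme synthesis, fell by log2 changes of -1.04 and -0.76.

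Of the 3 carriers most like uncoupling proteins, Slc25a30 rose. It had 49.7 to 89.7 (median 64.5) at RT in control mice and 91.4, 124, 124, 153 and 235 at 4°C. Knockout mice had 70.0 to 115 (median 85.3) at RT and 112 to 214 (median 138) at 4°C. The groups were separate in control mice and overlapped by a single value on each side in knockout mice, with log2 changes of 1.03 ± 0.21 and 0.74 ± 0.20 (limma, adjusted p = 0.000257 and 0.00405), the last lost without the mice of high muscle transcripts (0.0701). Slc25a14 and Slc25a27 had normalized counts of at most 41.7 and were not called. Among 5 relatives outside the symbol rule, Ucp1 rose by log2 changes of 1.37 ± 0.10 and 1.47 ± 0.10, from a median of 64626 to 160203 normalized counts in control mice, and Ucp2 by 0.83 ± 0.25 and 0.60 ± 0.24 (limma, adjusted p = 0.00777 and 0.0405). Ucp3 was called lower in control mice only (-0.83, and -0.22 in knockout mice at an adjusted p of 0.491), and the insertase Mtch2 and its relative Mtch1 were not called.

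No member was called by genotype. Limma called 0 of the 41 by genotype at RT, 0 at 4°C and 0 for the interaction of genotype and temperature, where 0.0478%, 0.0751% and 0% of all genes were called. At an unadjusted p under 0.05 there were 5, 2 and 2 of the 41 members, beside 754, 1023 and 878 of the 14651 genes, and DESeq2 and edgeR also called 0 in each comparison. The genotypes did not overlap for 0 members at either temperature, beside 0.218% of all genes at RT and 0.683% at 4°C. The median log2 difference of the members was 0.04 at RT and 0.01 at 4°C. For the members highest per kb the differences at RT and 4°C were 0.01 ± 0.30 and -0.13 ± 0.31 for Slc25a1, -0.03 ± 0.09 and 0.01 ± 0.10 for Slc25a5, -0.01 ± 0.08 and 0.01 ± 0.09 for Slc25a20, and 0.09 ± 0.08 and 0.04 ± 0.09 for Slc25a39, all log2 with SE. For Slc25a4 the difference at RT was 0.13 ± 0.12. Slc25a34, with the largest cold response, had 0.06 ± 0.17 and 0.06 ± 0.18.

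At RT the smallest unadjusted p-values belonged to Slc25a12 (1.16 ± 0.44 on the log2 scale, limma, adjusted p = 0.94), Slc25a32 (0.37 ± 0.16, adjusted p = 0.94) and Slc25a46 (0.29 ± 0.13, adjusted p = 0.94). Without the 8 mice the Slc25a12 difference was 0.06. At 4°C they belonged to Slc25a24 (-0.61 ± 0.20, limma, adjusted p = 0.528), Slc25a32 (0.47 ± 0.17, adjusted p = 0.575) and Slc25a40 (0.22 ± 0.12, adjusted p = 0.745). Slc25a24 was lower in 5 of the 6 knockout mice at 4°C than in any control, and Slc25a32 was higher than the control median in all 6. Without the 8 mice those differences were -0.38 and 0.11. For the interaction they belonged to Slc25a12 (-1.65 ± 0.63), Slc25a40 (0.42 ± 0.17) and Slc25a42 (0.37 ± 0.22), at adjusted p of 0.78, 0.793 and 0.857 by limma. Of 6 calcium-binding carriers listed, 4 were measured, Slc25a12, Slc25a23, Slc25a24 and Slc25a25. They were not called by genotype at either temperature, with log2 differences at 4°C of -0.49, -0.21, -0.61 and 0.34.

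**Figure D5:**
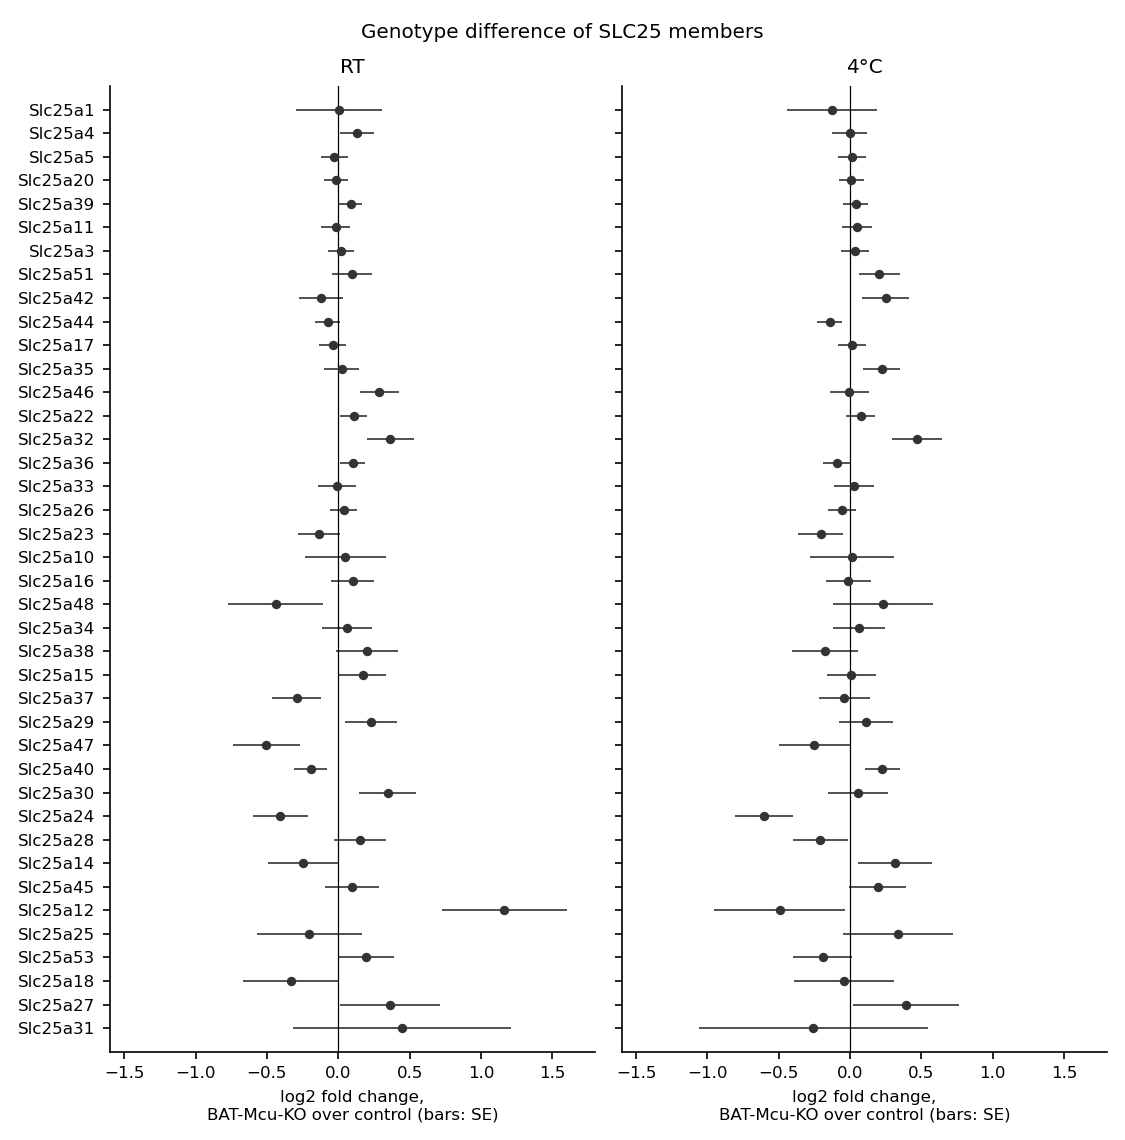
Log2 fold change of BAT-Mcu-KO over control for the members reported here at RT (left) and 4°C (right), ordered by level in control mice at RT, with SE bars. The points lie around 0 at both temperatures, with Slc25a12 at 1.16 at RT and Slc25a24 at -0.61 at 4°C farthest from it.

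Genes that work beside the carriers were read from lists of enzymes and transporters. Of 6 genes of the malate-aspartate shuttle and of citrate use, Got1, the cytosolic aspartate transaminase, was called higher in the cold in both genotypes (3.01 and 2.70) and Acly, the citrate lyase supplied by Slc25a1, lower (-1.59 and -1.75, adjusted p = 0.0129 and 0.00506), while the mitochondrial Got2 and the rest were not called. Of 4 genes of mitochondrial folate and glycine use, 2 were called higher and 1 lower by cold in control mice, and 1 higher in knockout mice. Mthfd2, which uses the folate that Slc25a32 carries, was called in both, with 2.85 ± 0.30 and 0.87 ± 0.28. It was lower in knockout mice at 4°C (-1.69 ± 0.30, adjusted p = 0.0151). The interaction of genotype and temperature was -1.99 on the log2 scale for Mthfd2. It was called for 0 of these 4 genes, 1 of which had an unadjusted p under 0.05 by limma. The smallest adjusted p among them, 0.6996 by limma, was also the smallest over all 14651 genes. The cold responses of these 4 genes were therefore not shown to differ between genotypes. Of 6 genes of branched-chain amino acid breakdown, 2 were called higher and 2 lower in control mice, and 1 higher and 1 lower in knockout mice, with Dbt higher and Bckdk, the kinase that inhibits the pathway, lower in both. Of 11 other inner membrane transport genes, among them the pyruvate carrier subunits Mpc1 and Mpc2, 1 was called higher and 5 lower by cold in control mice, and 2 higher and 3 lower in knockout mice. The sideroflexins Sfxn1 (-0.81 and -0.65), Sfxn4 (-1.15 and -1.26) and Sfxn5 (-0.74 and -0.74) fell in both genotypes, and the one called by genotype was Mcu, by -1.66 at RT and -1.61 at 4°C.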

How the data were processed

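RNA-seq libraries from the BAT of 23 mice were made by Smart-seq2. The authors aligned reads to mm10 with STAR (version 2.4.0j), counted them in exons with HTSeq irrespective of strand, and deposited a signal table of counts divided by DESeq2 size factors, from which whole reads were recovered for 100% of values under 10000 reads (tolerance 0.01 read). A deposited table of the authors' fold changes and p-values was not used.

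Limma (version 3.58.1, R version 4.3.3) was fitted to log2(normalized count + 1) with 4 group means over all mice and 14651 genes, and Benjamini-Hochberg adjusted p under 0.05 was called. Fold changes of low genes are understated by the pseudocount of 1. Each library is 1 mouse, so p-values measure the spread between mice. The main test followed the unit of the values, and DESeq2 (version 1.42.0) and edgeR (version 4.0.16) on recovered reads, which called 6875 and 6780 genes for cold in control mice, were alternatives, as were pseudocounts, a filter, scalings, each mouse left out and, added after seeing the data, 2 handlings of muscle transcripts. Exon lengths came from GENCODE M21, not the M7 of the counting, and promoters from RefSeq. Members and lists were chosen with earlier results of these data known. Values by mouse are given for the 5 members highest per kb, the 6 largest rises and 6 largest falls called in both genotypes, those called or with the 3 smallest p by genotype, and the calcium-binding carriers. Slc25a44 was added for its known role. Some items are counted in totals but not reported here by name or plotted.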

Additional observations from a re-analysis of the deposited data

Results flagged for a closer look

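In 164 groups of 5 or 6 mice, 1 for each member and group, 14 held a mouse that stood apart from the others by Dixon's criterion at 95%, where chance gives about 1 in 20. These 14 fell on 8 different mice, and 4 of the 14 on knockout replicate 1 at RT, which had the highest normalized count of Slc25a22 (1757), Slc25a38 (179), Slc25a39 (5967) and Slc25a51 (6989). Knockout replicate 5 at RT had the lowest Slc25a1 (4747) and the highest Slc25a34 (217), each on the side of the mice at 4°C. Control replicate 1 at 4°C had the highest Slc25a25 (759), Slc25a26 (487) and Slc25a31 (125, from 62 reads). The others were Slc25a10 (383, knockout replicate 4 at RT), Slc25a15 (87.8, knockout replicate 4 at 4°C), Slc25a23 (259, control replicate 4 at 4°C), Slc25a26 (412, control replicate 6 at RT) and Slc25a38 (77.6, knockout replicate 6 at 4°C).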

How the results depend on the processing

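No called member changed direction under any alternative. Leaving out 1 mouse at a time gave 21 to 25 members changed by cold in control mice, 20 to 24 in knockout mice, 19 to 22 in both genotypes, and 0 by genotype or interaction. Without the mice of high muscle transcripts, 12 were changed by cold in knockout mice and 11 in both genotypes, with fewer mice tested. The other alternatives kept these counts within 1.5 times. Over all genes, limma called 7, 11 and 0 by genotype at RT, at 4°C and for the interaction, DESeq2 20, 23 and 28, and edgeR 7, 6 and 0. Scaling to the 75th percentile moved the median log2 change of all genes with cold in control mice to -0.13. With the replicate number as a block, counts were 24, 23 and 0, and the replicate block is not a pairing, since mice sharing a number were different animals whose deviations correlated at -0.20 to 0.22. Members with a mean under 50 normalized counts, 6 of the 41, rest on few reads.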
